A study of Mus musculus with 2 samples.

Results

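The let-7 microRNA family and its relative Mir98 were examined in mouse embryonic stomach, at day 14.5 of development. The genes were chosen by identifier: 10 of the 1973 gene rows in the count tables carry an Ensembl identifier that belongs to a let-7 gene or to Mir98. The data come from 2 biological replicates of 1 group, stomach of strain B6NCrl with no treatment or genetic change named, sequenced as small RNA below 30 nt. The replicates were collected on different days, so replicate and day cannot be told apart. The labels name a stomach from 1 pup for each sample and also give its sex as pooled, so the number of animals behind each library is uncertain. Without a second group, the data allow a description of levels, of ratios between genes within a library and of differences between the 2 libraries.

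let-7 microRNAs are short RNAs of about the same length that guide Argonaute proteins to messenger RNAs through the seed, bases 2 to 8 of the mature form. They rise as embryonic tissues differentiate, and Lin28 proteins hold them back in immature cells by binding their precursors. Known targets include Lin28a and Lin28b themselves, Hmga2 and genes of the Ras family, none of which is measured by these tables. Each gene gives a hairpin precursor from which a 5p form, the main product of let-7 genes, and a 3p form are cut.

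The mature 5p forms are shown because they decide which genes can be told apart by their reads. All are 22 nt long, so their counts need no correction for length. Whether the library preparation captured all sequences equally was not tested, so ratios between genes describe counted reads. The sequences are from RefSeq (GRCm38.p6), with the seed in capitals. The family has 9 forms, and the last 3 of them are each encoded by 2 hairpins.
let-7g-5p: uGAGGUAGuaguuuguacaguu
let-7i-5p: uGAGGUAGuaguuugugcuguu
let-7d-5p: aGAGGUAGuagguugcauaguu
miR-98-5p: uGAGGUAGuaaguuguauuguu
let-7b-5p: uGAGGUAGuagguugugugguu
let-7e-5p: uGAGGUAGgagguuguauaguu
let-7a-5p: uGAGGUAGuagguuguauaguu
let-7c-5p: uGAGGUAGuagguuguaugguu
let-7f-5p: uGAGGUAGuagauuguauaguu

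All 9 forms share 1 seed and differ outside it. Relative to let-7a-5p, with its base first and positions counted from 1 at the 5′ end, let-7c-5p differs by A19G, let-7f-5p by G12A and let-7e-5p by U9G. let-7b-5p carries A17G and A19G, and let-7d-5p carries U1A and U16C. let-7g-5p carries G12U and U18C, and miR-98-5p carries G11A and A19U. let-7i-5p is the farthest from let-7a-5p, with G12U, A17G, U18C and A19U. Over the 36 pairs of forms the number of differing positions ran from 1 to 6, and 4 pairs differed at 1 position. Those pairs were let-7a with let-7c, let-7e or let-7f, and let-7b with let-7c. The forms of Mirlet7g, Mirlet7i, Mirlet7d and Mir98 differed from every other form of the family at 2 or more positions.

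**Figure D1:**
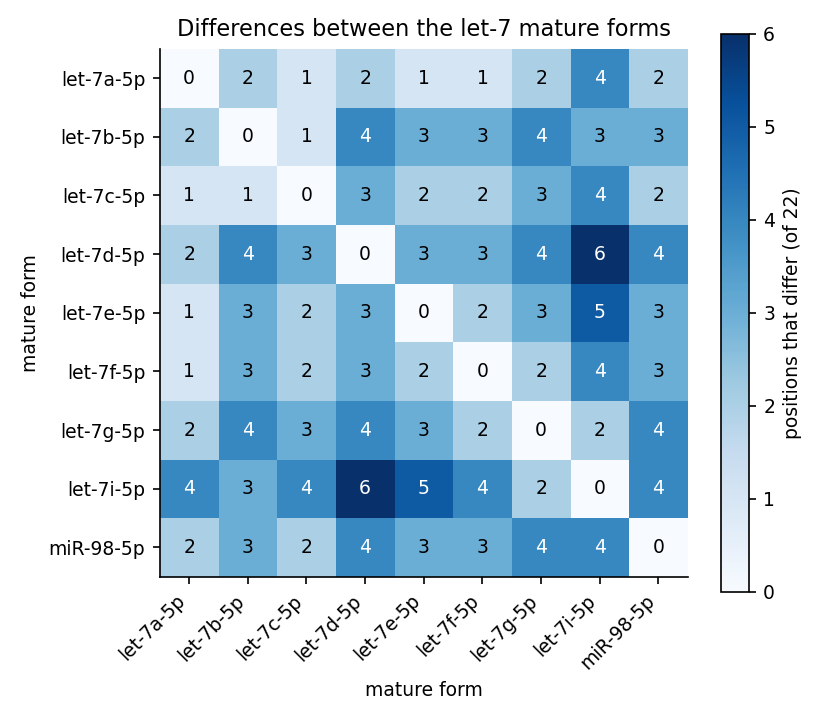
Number of positions, of 22, at which each pair of let-7 mature 5p forms differs, with the forms on both axes and the count in each cell. let-7a-5p has 3 neighbours at 1 difference, whereas let-7i-5p differs from let-7d-5p at 6 positions.

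Of the 10 genes, 5 were single-copy, meaning that their 5p form lies in 1 annotated hairpin: Mirlet7b, Mirlet7d, Mirlet7g, Mirlet7i and Mir98. The other 5 were multi-copy, with a 5p form shared by 2 hairpins: Mirlet7a-1 with Mirlet7a-2, Mirlet7c-1 with Mirlet7c-2, and Mirlet7f-2 with Mirlet7f-1. The hairpins of these 3 pairs are shown because reads that map to several places were assigned to no gene, so a read that ends within the shared part is not counted for either copy. Capitals mark the shared 5p form.
Mirlet7a-1: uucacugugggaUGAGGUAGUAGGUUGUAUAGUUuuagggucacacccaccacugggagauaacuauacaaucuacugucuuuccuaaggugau
Mirlet7a-2: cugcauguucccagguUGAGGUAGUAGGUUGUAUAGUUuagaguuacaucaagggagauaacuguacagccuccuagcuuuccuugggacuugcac
Mirlet7c-1: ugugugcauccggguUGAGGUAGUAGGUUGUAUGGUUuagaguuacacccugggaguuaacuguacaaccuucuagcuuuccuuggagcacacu
Mirlet7c-2: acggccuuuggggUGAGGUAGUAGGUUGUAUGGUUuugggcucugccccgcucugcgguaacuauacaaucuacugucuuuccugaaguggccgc
Mirlet7f-1: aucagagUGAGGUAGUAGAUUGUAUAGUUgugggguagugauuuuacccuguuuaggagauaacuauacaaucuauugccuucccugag
Mirlet7f-2: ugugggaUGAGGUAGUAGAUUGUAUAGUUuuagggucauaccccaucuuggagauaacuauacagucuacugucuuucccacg

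The shared stretch hardly exceeds the mature form. In the let-7a and the let-7c pair the base before the 5p form differs, 1 base after it is identical and the 2nd base after it differs, which gives an identical run of 23 nt. In the let-7f pair the bases directly before and directly after the form both differ, so the identical run is the 22 nt form itself. The 3p forms differ between the copies of each pair. However, the 3p form of Mirlet7a-1 is identical to that of Mirlet7c-2, so that neither of these 2 genes has an arm of its own. Mirlet7a-2, Mirlet7c-1 and Mirlet7f-2 have a 3p form found in no other annotated hairpin.

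Levels are counts per 1000000 gene counts (CPM). The counts assigned to genes summed to 4679914 for replicate 2 and to 5004548 for replicate 1, and reads that map to several places amounted to a further 48.4% and 48.7% of those totals. A count of 3, the limit that a count of 0 allows, corresponds to 0.641 CPM for replicate 2 and 0.599 CPM for replicate 1. Such limits and all intervals cover counting error only. Markers of the labelled tissue were present: both smooth muscle genes, all 5 Mir200 family genes, both forestomach genes and Mir375 were detected. In replicate 2 and replicate 1 the liver gene Mir122 stood at 65.8 and 56.7 CPM, the pancreatic list at 5.98 and 6.59 CPM, the striated muscle list at 9.83 and 15.8 CPM and the neural list at 0 and 0.200 CPM. Low values of these short lists do not show that such cells were absent, because reads that map to several places are not counted. Outside the lists, Mir137, also linked to neural cells, had a mean of 1750 CPM. Mir208b, also linked to striated muscle, had a mean of 90.7 CPM. Nor do near-equal values of these lists show that the libraries were alike in cell content. Mir802, outside the lists, had a mean of 23.9 CPM and a log2 ratio of replicate 2 over replicate 1 of -4.14, the lowest of all detected genes.

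All 10 let-7 genes were detected, where detection means at least 10 counts in each library. Together they held 429153 counts in replicate 2 and 449630 counts in replicate 1, or 9.17% and 8.98% of gene counts. The single-copy genes made up 97.7% of these assigned family counts in replicate 2 and 98.0% in replicate 1. Mirlet7g and Mirlet7i alone made up 77.6% of the assigned family counts in replicate 2 and 77.7% in replicate 1. The assigned counts leave out reads that map to several places, among them reads of the mature forms shared between hairpins. They also leave out the opposite-strand counts over Mirlet7e and Mirlet7f-1. The share of each mature form in the whole family therefore cannot be read from these values. CPM values are shares of the counted reads, and more microRNA per cell cannot be told apart from more cells of a type.

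Mirlet7g (ENSMUSG00000065440.1) lies on chromosome 9 at 106178840 to 106178927, plus strand (GRCm38), in an intron of Wdr82, which encodes a subunit of histone methyltransferase complexes. It had 42496 CPM in replicate 2 and 42739 CPM in replicate 1 (198876 and 213889 counts), and it was the 5th most abundant gene of the tables. The libraries differed little. In the order of levels it stood between Mir10a, with 44992 CPM in replicate 2 and 44465 CPM in replicate 1, and Mir26b, with 33803 and 33953 CPM. The ranges of the 3 genes did not overlap.

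Mirlet7i (ENSMUSG00000065406.2) is on chromosome 10 at 122985640 to 122985724, minus strand, inside an exon of D630033A02Rik, which is annotated as a transcribed processed pseudogene. It reached 28666 CPM in replicate 2 and 27098 CPM in replicate 1 (134155 and 135613 counts), 7th in the order. Its neighbours were Mir26b above and Mir23b below, and the range of Mir23b (28926 CPM in replicate 2 and 24442 CPM in replicate 1) enclosed that of Mirlet7i. Mirlet7g exceeded Mirlet7i 1.48-fold in replicate 2 and 1.58-fold in replicate 1. With 1 group of 2 libraries no likeness of pattern between genes could be measured, so only these neighbours in level are named.

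Mirlet7d (ENSMUSG00000065453.1), on chromosome 13 at 48536012 to 48536114, minus strand, lies in an exon of the lincRNA 6720427I07Rik. It had 11401 CPM in replicate 2 and 11126 CPM in replicate 1. Mir98 (ENSMUSG00000065536.2), on chromosome X at 151913214 to 151913321, plus strand, lies in an intron of Huwe1, which encodes an E3 ubiquitin ligase. It had 5180 CPM in replicate 2 and 5116 CPM in replicate 1. Mirlet7b (ENSMUSG00000065564.1), on chromosome 15 at 85707319 to 85707403, plus strand, in an exon of the transcript Lncppara, was the lowest of the single-copy genes, at 1857 CPM in replicate 2 and 1930 CPM in replicate 1. The 5 single-copy genes thus spanned a wide range in both libraries, in the same order.

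Mirlet7f-2 (ENSMUSG00000065602.1), on chromosome X at 151912346 to 151912428, plus strand, like Mir98 in an intron of Huwe1, led the multi-copy genes with 1453 CPM in replicate 2 and 1339 CPM in replicate 1. The other 4 lay close together and far below it. Mirlet7a-1 (ENSMUSG00000065421.2, chromosome 13, 48538179 to 48538272, minus strand, in an exon of 6720427I07Rik) had 183 CPM in replicate 2 and 137 CPM in replicate 1. Mirlet7a-2 (ENSMUSG00000092770.1, chromosome 9, 41536716 to 41536811, plus strand, in introns of 3110039I08Rik and Gm49317) had 174 and 131 CPM. Mirlet7c-1 (ENSMUSG00000065557.2, chromosome 16, 77599657 to 77599750, plus strand, in an intron of Mir99ahg) had 165 CPM in replicate 2 and 137 CPM in replicate 1. Mirlet7c-2 (ENSMUSG00000065608.1, chromosome 15, 85706603 to 85706697, plus strand, in an exon of Lncppara) was the lowest, at 127 and 91.5 CPM. The ranges of Mirlet7a-1 and Mirlet7a-2 overlapped, as did those of Mirlet7a-2 and Mirlet7c-1. All other neighbours in the order of the 10 genes were apart in both libraries.

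**Figure D2:**
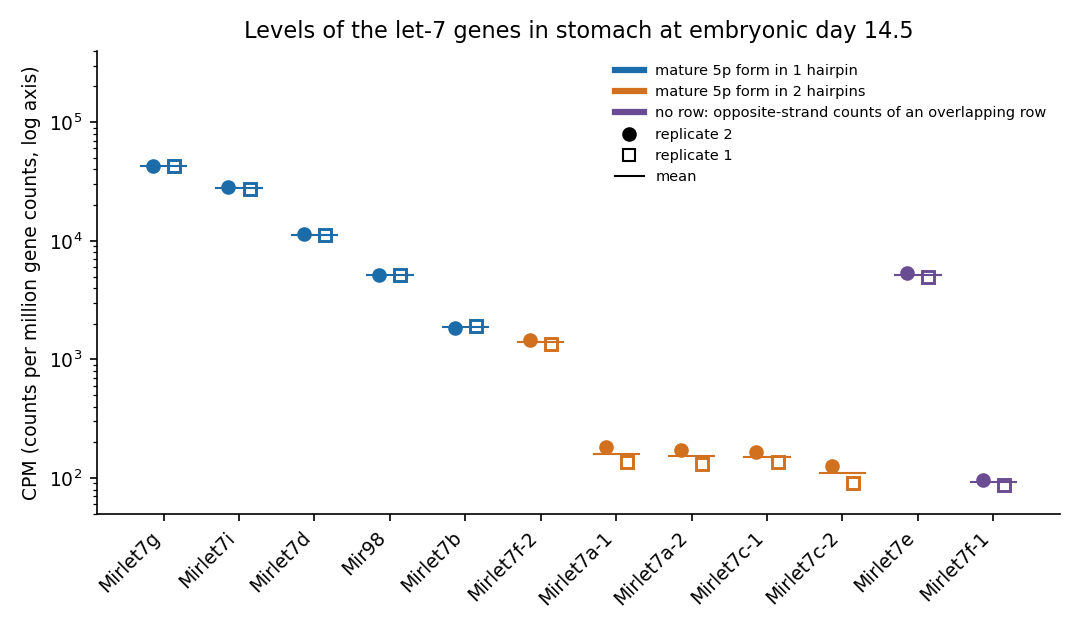
CPM of each let-7 gene on a log axis, with filled circles for replicate 2, open squares for replicate 1 and a line at the mean, coloured by the number of hairpins that hold the 5p form. The 5 single-copy genes range over 1857 to 42739 CPM, and the 4 let-7a and let-7c genes lie between 91.5 and 183 CPM.

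The single-copy genes totalled 89599 CPM in replicate 2 and 88008 CPM in replicate 1, and the multi-copy genes 2102 and 1836 CPM. The log2 ratio of the totals was 5.50 ± 0.12 (SD, n = 2), a 45.2-fold difference that exceeded the spread between replicates. Without Mirlet7f-2, a choice made after its values were seen, the log2 ratio was 7.29 ± 0.25. No test is given, because an exact test over 2 libraries of 1 group cannot reach a small p. The fold describes assigned reads, since the shared 5p forms of the multi-copy genes fall among the unassigned reads in an amount that the tables do not give. How much of the difference comes from this was not tested, and the order of the mature forms let-7a, let-7c and let-7f within the family cannot be read from these counts.

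Within a pair of copies the direction of the ratio repeated between libraries. Mirlet7a-1 stood at 1.05 times Mirlet7a-2 in both libraries, although Mirlet7a-2 has a 3p form of its own and Mirlet7a-1 has none. The counts were 856 against 814 in replicate 2 and 688 against 656 in replicate 1. No counting error was computed for so small a ratio, so its direction is not settled. Mirlet7c-1, whose 3p form is its own, exceeded Mirlet7c-2 in both libraries, by a log2 ratio of 0.48 ± 0.14 (SD, n = 2). These counts come from the part of the reads that could be placed at 1 hairpin, and the tables do not separate 5p from 3p reads.

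Mirlet7e and Mirlet7f-1 complete the family but are not among the 1973 rows. Both lie wholly inside a row annotated on the other strand, Gm25927 for Mirlet7e and Gm24111 for Mirlet7f-1, and those rows had 0 counts on their own strand in both libraries. The opposite-strand counts over Mirlet7e (chromosome 17, 17830352 to 17830444, plus strand, in an intron of Spaca6, which encodes a sperm protein needed for fusion with the egg) were 5317 CPM in replicate 2 and 4962 CPM in replicate 1. This range overlapped that of Mir98. The opposite-strand counts over Mirlet7f-1 (chromosome 13, 48537829 to 48537917, minus strand, in an exon of 6720427I07Rik) were 96.8 CPM in replicate 2 and 87.3 CPM in replicate 1. This range overlapped that of Mirlet7c-2. Mirlet7f-2 exceeded this value 15.0-fold in replicate 2 and 15.3-fold in replicate 1, the widest gap within a pair of copies. These folds describe only reads that could be placed at a single hairpin, since the copies share the whole 5p form. The output of the hairpins cannot be read from them. With both added, the family total was 97115 CPM in replicate 2 and 94894 CPM in replicate 1. Among the 10 rows of the family, the strand opposite to the annotation held 1 count of Mirlet7b and 1 of Mir98 in replicate 1 and none elsewhere.

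All let-7 genes but Mirlet7g and Mirlet7i lie in clusters, where neighbouring hairpins can be cut from 1 primary transcript. In 3 clusters a let-7 gene stands between a gene of the Mir99 and Mir100 family and one of the Mir125 family, an arrangement known from many animals. Mirlet7c-1 lies 656 nt from Mir99a, the 2nd most abundant gene of the tables. Mirlet7c-1 had 165 CPM in replicate 2 and 137 CPM in replicate 1, against 75345 and 80573 CPM for Mir99a, a log2 ratio of -9.02 ± 0.26 (SD, n = 2). Reads that end within a shared 5p form are not counted. This ratio and those of the multi-copy let-7 genes below therefore describe assigned reads, not the output of each hairpin. Mir125b-2, 46522 nt away, had 903 CPM in both libraries, and its 5p form is also shared by 2 hairpins.

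Mirlet7a-2 lies 5211 nt from Mir100, which had 5580 CPM in replicate 2 and 5917 CPM in replicate 1. The log2 ratio of Mirlet7a-2 over Mir100 was -5.25 ± 0.35. Mir125b-1, at 45114 nt, had 909 CPM in replicate 2 and 821 CPM in replicate 1. In the Mir99b cluster the hairpins are closer, with Mirlet7e 94 nt from Mir99b and 367 nt from Mir125a. The opposite-strand level of Mirlet7e was below Mir99b, which had 18619 CPM in replicate 2 and 17887 CPM in replicate 1, by a log2 ratio of -1.83 ± 0.03. Over Mir125a, with 5005 and 3876 CPM, the log2 ratio was 0.22 ± 0.19, so Mirlet7e was higher in each library, by 0.09 in replicate 2 and 0.36 in replicate 1, while the ranges of CPM of Mirlet7e and Mir125a overlapped. The Mir99 or Mir100 gene was the highest of its cluster in all 3. The let-7 gene was the lowest in the 2 clusters where its 5p form is multi-copy. In the Mir99b cluster, where its 5p form is single-copy, the let-7 gene stood above the Mir125 gene in each library. Mir125b-1 and Mir125b-2 have a mature form in 2 annotated hairpins, and Mir125a has not. Whether the number of hairpins has a part in the order within these clusters was not tested.

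The remaining clusters hold let-7 genes alone. On chromosome 13, Mirlet7a-1 lies 2064 nt from Mirlet7d, and the log2 ratio of Mirlet7a-1 over Mirlet7d was -6.15 ± 0.27. Mirlet7f-1, also multi-copy, lies between them, 261 nt from Mirlet7a-1 and 1714 nt from Mirlet7d. Its opposite-strand level was the lowest of this cluster, with a log2 ratio of -0.79 ± 0.19 over Mirlet7a-1 and -6.94 ± 0.08 over Mirlet7d. On chromosome 15, Mirlet7c-2 lies 621 nt from Mirlet7b, with a log2 ratio of -4.13 ± 0.37. On chromosome X, Mirlet7f-2 lies 785 nt from Mir98, with a log2 ratio of -1.88 ± 0.07. In each of the 3 clusters the counts of every multi-copy gene were below those of the single-copy gene in both libraries. The gap exceeded the spread between libraries. However, reads that end within a shared mature form are left out for the multi-copy genes alone, in both libraries. The repeated direction therefore cannot show which hairpin of a cluster gives more microRNA, and how much of the gap comes from the reads left out was not tested.

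**Figure D3:**
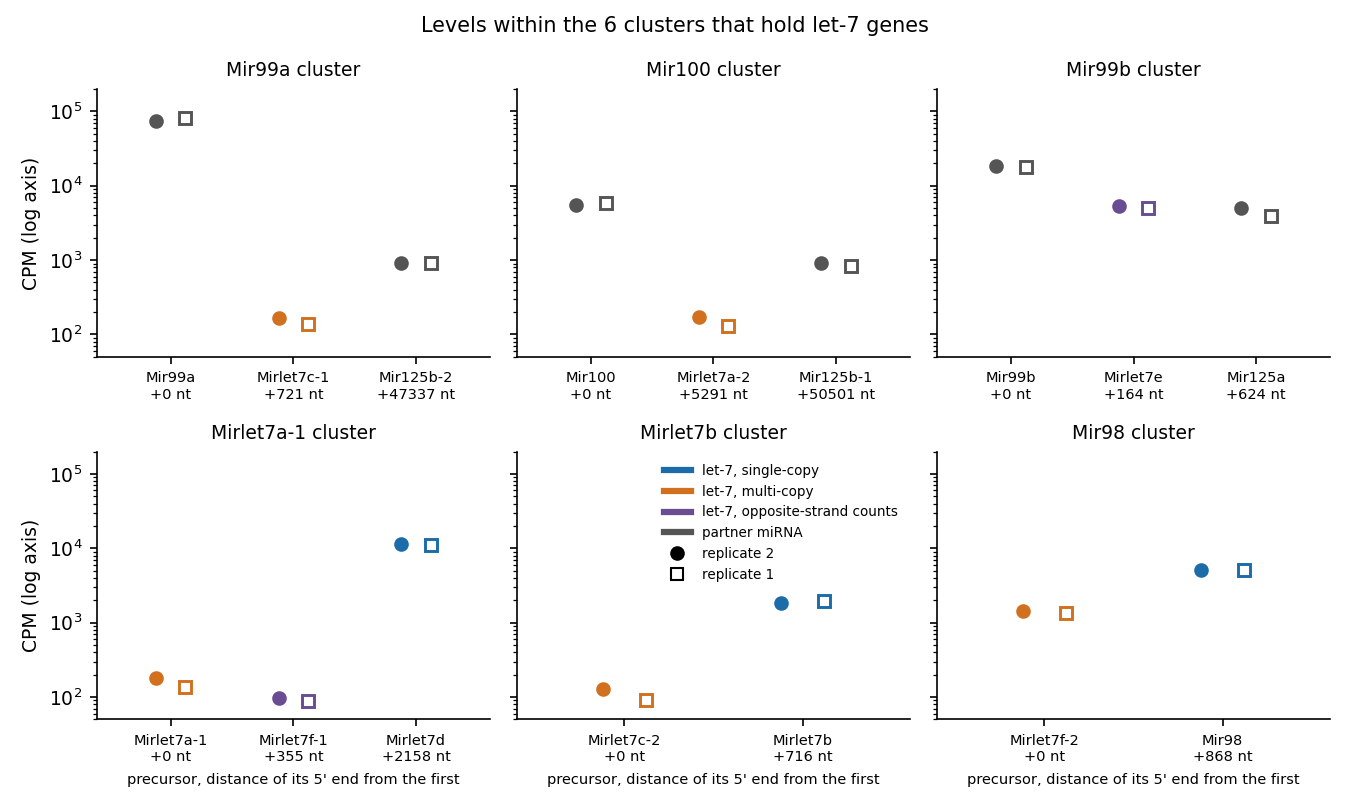
CPM on a log axis for the hairpins of the 6 clusters, each placed in order with the distance of its 5′ end from the first hairpin in nt, with filled circles for replicate 2 and open squares for replicate 1. Each multi-copy let-7 gene lies below the single-copy genes of its cluster in counted reads, which leave out those within a shared mature form. Mirlet7e, drawn from opposite-strand counts, lies slightly above Mir125a in each library.

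The libraries were then compared gene by gene to see how stable the family was between the replicates, by a two-sided exact binomial test of the counts, with p-values adjusted after Benjamini and Hochberg for all 361 detected genes. This compares 2 libraries with counting noise, not 2 conditions. None of the 10 genes had both an adjusted p below 0.05 and a log2 ratio of at least 1 in size, against 1.11% of detected genes. By adjusted p alone 8 of the 10 differed, against 42.1% of detected genes. Of the 101 detected genes between 1000 and 50000 CPM, a range chosen after the values were seen that holds 6 of the 10, 77.2% differed by adjusted p. At an unadjusted p under 0.05 the same number of let-7 genes, 8, differed, against 49.3% of detected genes. The genes higher in replicate 2 by adjusted p numbered 7, against 24.7% of detected genes (89 genes), and 1 was lower, against 17.5% (63 genes). With edgeR's TMM factors the let-7 genes split into 6 higher and 2 lower, and the detected genes into 75 higher and 89 lower.

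Among the single-copy genes the log2 ratios of replicate 2 over replicate 1 stayed between -0.06 for Mirlet7b and 0.08 for Mirlet7i. The 4 let-7a and let-7c genes moved more and in 1 direction. Mirlet7c-2 had 595 counts in replicate 2 and 458 counts in replicate 1, which gave a log2 ratio of 0.47 (exact 95% interval 0.30 to 0.65, exact adjusted p of 4.7e-07). Mirlet7a-1 had 856 counts in replicate 2 and 688 counts in replicate 1, with a log2 ratio of 0.41 (0.27 to 0.56, exact adjusted p of 1.05e-07). Mirlet7a-2, at 0.41, and Mirlet7c-1, at 0.27, were also higher in replicate 2. Mirlet7f-2 was at 0.12.

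The median log2 ratio was 0.41 for the 5 multi-copy genes and 0.02 for the 5 single-copy genes, beside 0.04 over all detected genes. Of the 47 detected genes with 80 to 200 CPM, a range chosen after the values were seen that includes these 4, 14 were higher in replicate 2 by adjusted p and 3 were lower. Among detected genes outside the family, the 43 with a mature form in 2 or more annotated hairpins had a median of 0.10, and the 272 with forms in 1 hairpin had a median of 0.02. By adjusted p, 11 of the 43 (25.6%) were higher in replicate 2 and 4 were lower. Of the 272, 63 (23.2%) were higher and 50 were lower. The median levels of these 2 sets were 51.8 and 156 CPM. The share of reads that map to several places was nearly the same in both libraries, as given above. Whether these values have a part in the higher multi-copy counts of replicate 2 was not tested.

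Scaling changed the direction of small ratios. With edgeR's TMM factors the log2 ratios of all genes shift by an equal amount, which put Mirlet7d at -0.010 and Mir98 at -0.028, and the 5 multi-copy genes stayed above 0, at 0.07 to 0.43. Under these factors Mirlet7g was called lower in replicate 2, at -0.054 (exact adjusted p of 5.01e-32, against 0.132 with gene totals), and Mirlet7d lost its call (exact adjusted p of 0.377, against 0.000194).

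With gene totals, 5 of the 6 partner genes differed by adjusted p, against 42.1% of detected genes and 77.2% of those between 1000 and 50000 CPM. Of these, 3 were higher and 2 lower in replicate 2, and none of the 6 passed both thresholds. The largest ratio among them was that of Mir125a, at 0.37, whereas Mir99b, of the same cluster, was at 0.06. The range of 1000 to 50000 CPM does not hold all partners: Mir99a lies above it, and Mir125b-1 and Mir125b-2 lie below it.

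**Figure D4:**
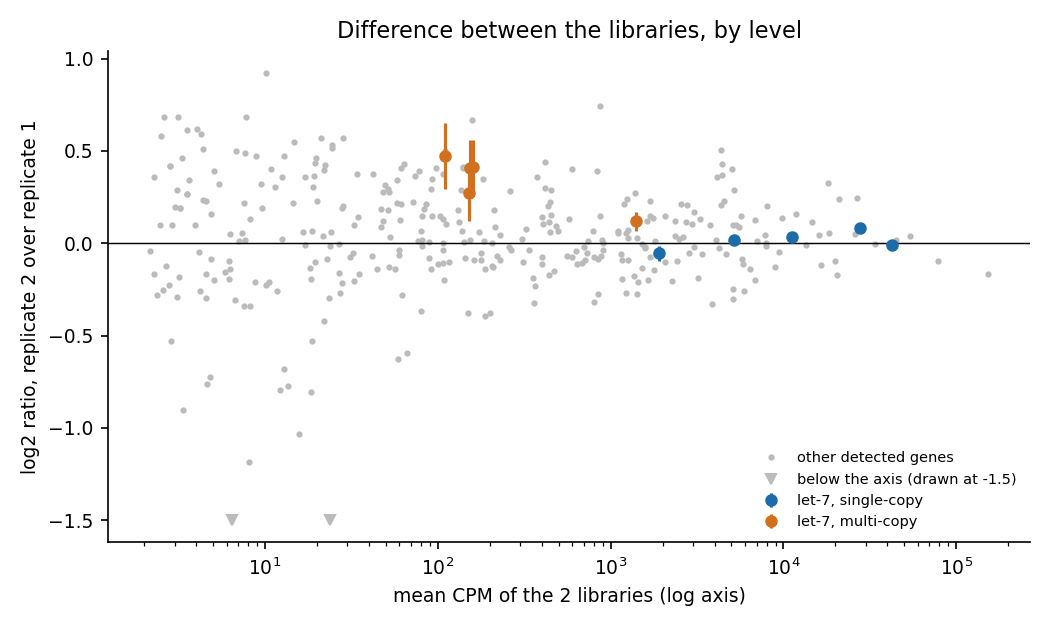
Log2 ratio of replicate 2 over replicate 1 against mean CPM (log axis) for the 361 detected genes, with let-7 genes coloured by class and bars for exact 95% intervals. The single-copy genes lie close to 0, and the 4 let-7a and let-7c genes lie between 0.27 and 0.47.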

How the data were processed

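Small RNA below 30 nt from embryonic stomach was sequenced in 2 libraries of 1 group. The authors deposited raw counts per gene, made on mm10 with GENCODE M4 and derived from an alignment, per the file text deposited with the tables. Aligner and counter: not given in the sources used here. Of 3 count columns the 1st, both strands, was used, since the other 2 (own and opposite strand) add up to it for every gene. The 4 lines that name no gene stayed out of totals. Unmapped reads were 13.5% of all reads in replicate 2 and 12.5% in replicate 1, reads that map to several places 27.4% and 27.8%, and reads outside genes 2.32% and 2.50%. Ambiguous reads were 0.

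Genes were matched by identifier without version to GENCODE M21 on the same assembly (1894 of 1973 rows matched), and hairpins and mature forms were taken from RefSeq (GRCm38.p6), whose hairpin coordinates equal those of GENCODE M21 for all 12 family genes. The 5p form of Mirlet7a-2 was located by exact match in its hairpin. A gene was multi-copy when its 5p form occurred in 2 or more annotated hairpins. Levels are CPM, mean ± SD with n = 2. A quasi-likelihood test has no contrast in 1 group, so the libraries were compared by an exact conditional binomial test (SciPy 1.17.1). The code of the test was run on simulated counts with known changes. Those counts held counting noise only, so the simulation does not cover further differences between libraries. Alternatives were own-strand counts, other denominators and filters, single replicates, and the scaling factors of edgeR 4.0.16 and DESeq2 1.42.0. Members and partner lists were chosen with earlier results of these data known. Named are all members, the 6 cluster partners, the genes next in level to the 2 leading members and the rows overlapping Mirlet7e and Mirlet7f-1.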

Additional observations from a re-analysis of the deposited data

Results flagged for a closer look

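The levels of the 10 genes use counts of both strands, and the gene totals include opposite-strand counts of all rows. Counts on the strand opposite to a row's annotation exceeded the 3 counts that a count of 0 allows at both family genes that are no rows. Over Mirlet7e, Gm25927 held 24882 such counts in replicate 2 and 24835 in replicate 1. Over Mirlet7f-1, Gm24111 held 453 in replicate 2 and 437 in replicate 1. Neither row had a count on its own strand. The groups of 2 libraries are too small for a search for outlying samples.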

How the results depend on the processing

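Detection of all 10 genes held with own-strand counts, in each library alone and with minimums of 1 or 100 counts. By the exact binomial test none passed both thresholds between libraries with the own-strand column, TMM or size factors, totals without the 5 most abundant genes, or a minimum of 1 count in either library. The family total of 90773 CPM was 93332 with the own-strand column, 61113 with reads that map to several places in the denominator, 51679 with all reads in the denominator and 96004 with the opposite-strand counts over Mirlet7e and Mirlet7f-1. With TMM or size factors it moved by less than the SD, and it lay between 89844 and 91701 with 1 replicate left out. The log2 ratio of single-copy over multi-copy totals was 7.29 without Mirlet7f-2, lay between 5.41 and 5.58 with 1 replicate left out, and was 5.50 with the own-strand column. Defining copies by 20 shared nt gives the same 2 classes, and with 5 genes in each a ratio per gene equals that of the totals, so neither bears on stability. Between the libraries Mirlet7d changed sign to -0.010 with TMM factors and -0.013 when the 5 most abundant genes were left out of the totals, and was at 0 with size factors. Mir98 changed sign to -0.028 with TMM factors, -0.017 with size factors and -0.031 without those 5 genes in the totals. These shifts follow from the scaling, which moves every gene by an equal amount. By adjusted p, the 7 higher and 1 lower let-7 genes became 6 and 2 with TMM or size factors and 6 and 3 without those 5 genes: Mirlet7g was then called lower in all 3 settings, Mirlet7d lost its call, and Mir98 was called only without those 5 genes (exact adjusted p of 0.0406). The calls of all detected genes split into 79 higher and 86 lower with size factors and 74 and 92 without those 5 genes. The log2 ratios of cluster partners kept their direction in each library. No paired analysis was possible because there is 1 group. Depth limits the let-7a and let-7c genes most, with 458 to 856 counts each.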

Other observations

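RefSeq lists 3 further mouse genes whose mature form is named let-7 or has the let-7 seed, and these were looked up after the values of the family were seen. let-7j, of the gene with the symbol Mir7j, which is not a Mir7 family gene by its sequence, has the following 24 nt form, with bases 2 to 8 in capitals.
let-7j: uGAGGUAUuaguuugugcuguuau

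Over its first 22 nt let-7j differs from let-7i-5p by G8U alone (the base of let-7i-5p first), a change inside the seed, so it does not carry the seed of the family. Mir7j, on chromosome 3 with the mature form at 140028281 to 140028304, plus strand, had 233 counts in replicate 2 and 219 counts in replicate 1. That was 0.174% of the Mirlet7i count in replicate 2 and 0.161% in replicate 1, so the ratio repeated between libraries. Mir7k and Mir1961, both on chromosome 5 and both with the let-7 seed in shorter mature forms of 19 and 17 nt, had 0 counts in both libraries, which allows at most 0.641 CPM (replicate 2) and 0.599 CPM (replicate 1).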
